A study of Mus musculus with 30 samples.

Results

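The sites described here are 527 accessible chromatin sites of mouse CD4 T cells that activation did not open in control cells and that were less accessible in activated PKA knockout cells. They were selected on ATAC-seq values of 9 libraries, from 110808 sites in all. A site was taken where the log2 ratio of activated over naive WT was below 1 and the log2 ratio of activated KO over activated WT was at most -1. Both ratios used group means of CPM, the counts of a site scaled to the library's total in sites, with 0.5 CPM added. Below they are called non-induced lost sites. A further 4623 sites that activation did open in WT passed the same loss threshold and are used for comparison, as are all sites.

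The series title places the work in signalling from protein kinase A (PKA) to the transcription factor CREB, IL-12 responsiveness and Th1 fate. Naive CD4 T cells of spleen and lymph nodes were enriched and sorted, from mice labelled PKA KO and from control mice labelled WT. The groups used are KO and WT cells that were activated for 3 days with antibodies to CD3 and CD28, KO and WT naive cells, and KO and WT cells rested for 3 days in IL-7 and given forskolin, an activator of adenylyl cyclase, at 1 ug/mL for 4 h. ATAC-seq, which reads open chromatin with a transposase, covered naive and activated cells, RNA-seq covered every condition, and each group held 3 libraries. The labels do not name the PKA gene removed, the driver of the deletion or the age of the mice, and are silent on whether libraries with the same label are separate animals and on whether the forskolin cells had been activated first. P-values therefore measure the spread between libraries, which may be technical.

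PKA is a tetramer of regulatory and catalytic subunits. Cyclic AMP binds the regulatory subunits and frees the catalytic ones, which phosphorylate CREB among many substrates, and CREB binds the cyclic AMP response element (CRE) near its target genes. Accessible sites far from gene starts often act as enhancers, and resting T cells already hold many of them open for the factors that keep the naive state.

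Sequence could be shown for gene starts only, from RefSeq windows of 250 bases before to 50 bases after a start (build GRCm38.p6). Of the 527 sites, 11 overlapped such a window, and 9 of those starts belong to gene models with no other name than a Gm number. Shown are the start of Gpr146 (chr5:139389654-139389953, plus strand) and that of Bfsp2 (chr9:103449127-103449426, minus strand), each covered whole by a non-induced lost site. The start of the gene model Gm19585 (chr17:52149039-52149338, plus strand) was covered over 270 of its 300 bases. An annotated start of Stat4 (chr1:52007990-52008289, plus strand) is shown because a non-induced lost site lies 107 bases downstream of its window. This start lies inside the gene span and not at its edge. Nr4a3 (chr4:48045055-48045354, plus strand) is shown for its CRE core sites. Capitals mark the CRE core site TGACGT, the AP-1 motif TGANTCA and the RUNX motif TGTGGT on either strand, and in Nr4a3 the CRE core site alone.
Gpr146: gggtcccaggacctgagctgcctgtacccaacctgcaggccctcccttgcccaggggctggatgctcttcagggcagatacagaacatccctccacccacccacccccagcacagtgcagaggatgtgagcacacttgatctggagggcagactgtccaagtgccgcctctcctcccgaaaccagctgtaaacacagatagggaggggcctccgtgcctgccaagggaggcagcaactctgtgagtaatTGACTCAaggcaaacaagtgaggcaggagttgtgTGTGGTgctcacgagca
Bfsp2: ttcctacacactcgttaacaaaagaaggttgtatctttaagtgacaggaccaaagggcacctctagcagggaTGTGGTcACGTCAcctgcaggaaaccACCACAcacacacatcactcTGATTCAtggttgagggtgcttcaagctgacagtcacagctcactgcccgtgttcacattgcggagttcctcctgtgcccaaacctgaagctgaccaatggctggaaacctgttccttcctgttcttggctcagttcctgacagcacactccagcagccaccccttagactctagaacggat
Gm19585: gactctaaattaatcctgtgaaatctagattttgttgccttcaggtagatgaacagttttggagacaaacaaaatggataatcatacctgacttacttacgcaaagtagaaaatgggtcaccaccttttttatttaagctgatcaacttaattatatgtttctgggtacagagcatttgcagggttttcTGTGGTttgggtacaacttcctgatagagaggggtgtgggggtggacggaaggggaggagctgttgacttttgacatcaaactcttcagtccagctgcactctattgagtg
Stat4: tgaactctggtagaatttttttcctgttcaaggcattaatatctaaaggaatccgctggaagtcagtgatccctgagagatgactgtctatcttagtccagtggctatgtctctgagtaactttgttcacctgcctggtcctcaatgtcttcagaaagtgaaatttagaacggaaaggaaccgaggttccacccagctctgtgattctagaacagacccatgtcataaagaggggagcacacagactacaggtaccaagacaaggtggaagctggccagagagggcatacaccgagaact
Nr4a3: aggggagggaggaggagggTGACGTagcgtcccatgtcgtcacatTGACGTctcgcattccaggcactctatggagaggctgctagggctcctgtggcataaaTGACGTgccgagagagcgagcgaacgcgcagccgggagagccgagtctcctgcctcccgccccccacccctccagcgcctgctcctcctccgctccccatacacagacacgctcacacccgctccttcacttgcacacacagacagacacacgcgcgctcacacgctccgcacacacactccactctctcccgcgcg
The Nr4a3 window held 3 CRE core sites and no full CRE (TGACGTCA, which contains the core site). The Bfsp2 window held 1 CRE core site, 1 AP-1 motif and 2 RUNX motifs, the Gpr146 window 1 AP-1 and 1 RUNX motif, and the Gm19585 window 1 RUNX motif, while the Stat4 window held none of these 4. Of all 32851 windows, 7.51% held a CRE core site, 1.79% a full CRE, 7.81% the AP-1 motif and 16.8% the RUNX motif. Among genes with a non-induced lost site whose RNA was lower in activated KO cells, 12.2% of 74 had a CRE core site in a window, against 14% of 9352 tested genes. A match is a description of letters and not a bound site.

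The ATAC libraries held between 18522373 and 25318916 counts in sites, and the RNA libraries of naive and activated cells between 8272201 and 11950488 counts. A count of 0 allowed up to 0.118 to 0.162 CPM per ATAC library, for counting error only. Prkaca, which encodes the alpha catalytic subunit of PKA, stood at 1.11 ± 0.291 CPM in activated KO cells against 49.6 ± 6.17 CPM in activated WT cells, and at 2.33 ± 0.273 CPM in naive KO cells against 34.8 ± 5.11 CPM in naive WT cells (SD, n = 3). Forskolin-treated cells had 3.2 ± 0.62 CPM in KO cells and 34.7 ± 2.2 CPM in WT cells. All 8 CD4 T cell markers were detected in every group of naive and activated cells, but their sum was 2614 to 2630 CPM in activated KO libraries and 2947 to 3076 CPM in activated WT libraries. Summed markers of B cells ran from 5.31 to 8.56 CPM in activated KO libraries and from 1.52 to 2.94 CPM in activated WT libraries over 7 genes, with Blk at 0 in both and Pax5 at 0 in KO. In naive libraries they ran from 6.14 to 7.92 CPM in KO and from 2.57 to 4.35 CPM in WT. Sums of 7 myeloid and dendritic cell markers ran from 30.1 to 32.5 CPM in activated KO and from 37.1 to 45.7 CPM in activated WT libraries, with Lyz2 and Itgax at 0 in both. In naive libraries, 5 erythroid markers summed to 6.83 to 15 CPM in KO and 1.7 to 6.53 CPM in WT, and 2 CD8 T cell markers to 26.1 to 27.9 CPM in KO and 23.2 to 23.9 CPM in WT. None of these ranges overlapped between genotypes. Nor did erythroid sums in activated libraries, at 0.0837 to 0.386 CPM in KO and 0.446 to 0.744 CPM in WT, opposite to naive ones. CD4 T cell sums in naive libraries, at 4841 to 4939 CPM in KO and 4977 to 5130 CPM in WT, stood apart too. NK cell sums overlapped in both states, as did CD8 T cell sums in activated and myeloid and dendritic cell sums in naive libraries. The part of these cells in the results was not tested. In bulk libraries, fewer cells with an open site and a less open site in each cell cannot be told apart.

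At the median, non-induced lost sites carried signal in naive cells of both genotypes and less in activated KO cells. Their median level was 2.21 CPM in activated KO cells against 6.59 CPM in activated WT cells, and 7.9 CPM in naive KO cells against 9.19 CPM in naive WT cells. The induced and lost sites had a median of 0.152 CPM in naive KO cells and 0.136 CPM in naive WT cells, a contrast that follows from the induction threshold. Library by library, the median of the 527 sites was 2.43, 2.09 and 2.05 CPM in activated KO, 7.35, 6.2 and 5.9 CPM in activated WT, 7.6, 8.01 and 7.5 CPM in naive KO, and 9.33, 9.43 and 8.75 CPM in naive WT. In each state the medians of KO libraries all lay below those of WT libraries. The activated values and the naive WT values chose the sites, so they are description only. At 526 of the 527 sites all activated KO libraries lay below all activated WT libraries, as was so at 22.9% of all sites. By the authors' deposited table, 189 sites (35.9%) were lower in activated KO cells at a false discovery rate (FDR) under 0.05, against 4.64% of all sites.

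**Figure D1:**
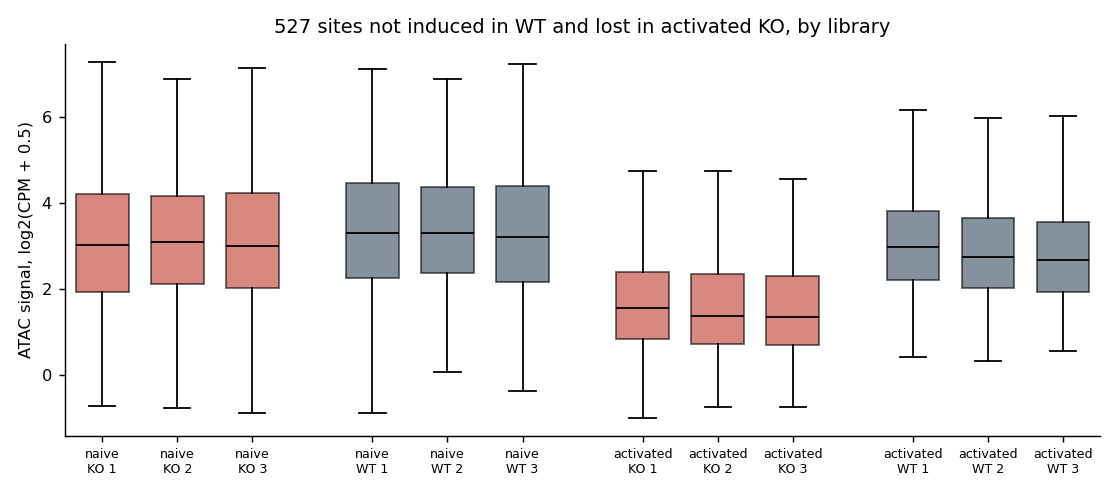
Box plots of the ATAC signal of the 527 non-induced lost sites, as log2(CPM + 0.5), in each of the 12 libraries, KO left of WT in naive and in activated cells. Boxes span the quartiles with the median as a line, and whiskers reach the farthest site within 1.5 box heights. The 3 activated KO libraries sit lowest, with medians of 2.05 to 2.43 CPM.

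The difference in activated cells ran from -3.08 to the threshold, with a median log2 KO over WT of -1.2 and quartiles of -1.39 and -1.08. Most sites thus lay close to the threshold. The 3 sites just inside it had -1.001, -1.002 and -1.002, and the 3 just outside -0.9991, -0.999 and -0.9988. On the induction threshold the 3 highest sites inside had a WT activation log2 ratio of 0.9953, 0.9925 and 0.9911, and the next outside had 1.0, 1.004 and 1.011. The sites fell into 148 that closed in WT on activation, by at least 1 on the log2 scale, and 379 that stayed within 1 of their naive WT level. This split and all site levels compared between states are in plain CPM. TMM factors ran from 0.7918 to 0.8533 in naive and from 1.189 to 1.24 in activated ATAC libraries. TMM scaling would thus lower every ratio of activated over naive cells, and some sites called stable here would count as closing. The closing sites had a median of 1.98 CPM in activated KO and 5.39 CPM in activated WT cells, and of 20.3 CPM in the naive KO cells, against 26.0 CPM in the naive WT cells. The stable sites had 2.4 CPM in activated KO and 6.96 CPM in activated WT cells, and 5.32 CPM in the naive KO cells, against 6.26 CPM in the naive WT cells. In KO cells 331 of the 527 sites (62.8%) fell by at least 1 between naive and activated cells, against 148 (28.1%) in WT cells. The median log2 ratio of activated over naive cells was -1.33 in KO and -0.232 in WT, and 502 sites had a negative ratio in KO. The thresholds set activated KO below activated WT and left out rising WT sites, so a larger fall in KO largely follows from selection. These counts are description only, and shares over all sites were not computed.

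In naive cells a part of these sites was already less accessible in KO than in WT. Naive KO libraries did not enter the selection, but naive WT libraries did, through the induction threshold. Tested on all 12 libraries with the quasi-likelihood method of edgeR, adjusted over all sites, 98 of 526 tested non-induced lost sites (18.6%) were lower in naive KO cells and 1 was higher. Over all 110797 sites tested, 0.607% were lower and 0.938% higher. The median log2 KO over WT was -0.2 over the non-induced lost sites and 0.0707 over all sites. Of the whole set, 39.3% of calls were lower with TMM scaling and 55.7% with RLE scaling. RLE called 106 non-induced lost sites lower, and 816 of all sites. Sites neither induced nor lost, held to the same induction threshold, had 529 of 58410 lower (0.906%). Among the induced and lost sites 15 of 4621 (0.325%) were lower, and over all sites lost in activated KO, chosen with no naive value, 113 of 5147 (2.2%). The induced and lost sites had naive medians of 0.152 CPM in KO and 0.136 CPM in WT cells, so a decrease could hardly be called there. They make up most of those 5147 sites, so neither share is an independent check. Among sites averaging at least 5 CPM over the 12 libraries, 80 of 329 non-induced lost sites (24.3%) and 471 of 39090 of all sites (1.2%) were lower.

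The call depended on the test. The authors' deposited table called 1 of the 527 sites at an FDR under 0.05 in naive cells, and 19 of all sites (0.0171%) in either direction. At 196 of the 527 sites (37.2%) all naive KO libraries lay below all naive WT libraries, as was so at 4.92% of all sites. By behaviour in WT, 43 of 148 closing sites (29.1%) and 55 of 378 tested stable sites (14.6%) were lower in naive KO cells. Naive WT values both made that split and were the reference of this test. Closing sites also had more signal, with a naive WT median of 26.0 CPM against 6.26 CPM, so these shares cannot be set against each other. Shares over all closing or stable sites were not computed. Across the 527 sites the naive and activated log2 differences had a Pearson r of 0.31 and a Spearman rho of 0.24, as a description over sites that share their libraries.

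**Figure D2:**
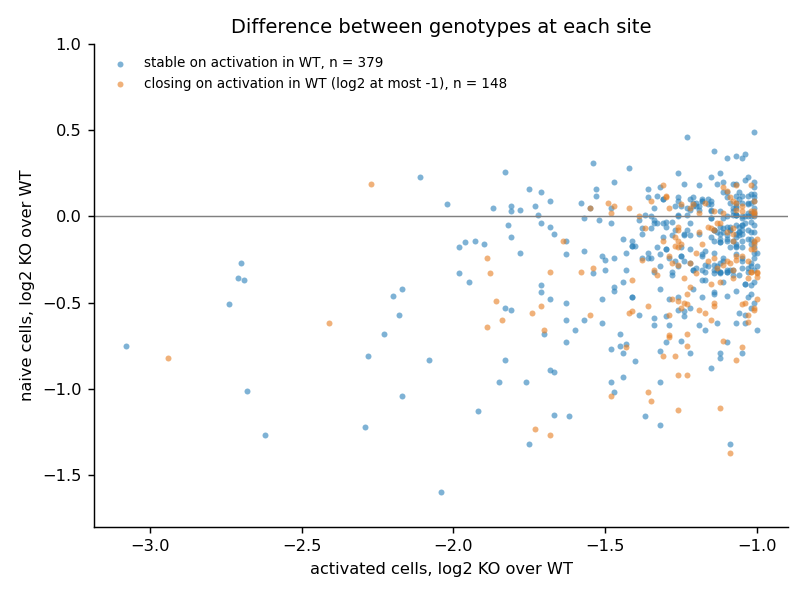
Each point is 1 of the 527 non-induced lost sites, with its log2 KO over WT in activated cells on the x axis and in naive cells on the y axis, coloured by whether the site closed (148 sites) or was stable (379 sites) on activation in WT. All points lie at or left of -1 by selection, and 385 lie below 0 in naive cells.

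The 8 largest losses left little signal in activated KO cells, at 0.734 to 3.88 CPM. A site within 10 kb of Trim25, which encodes a ubiquitin ligase of antiviral sensing (chr11:89024101-89024501, intergenic), had 2.52, 2.52 and 2.75 CPM in activated KO against 30.2, 23.4 and 23.4 CPM in activated WT libraries. The groups stood far apart, with a log2 ratio of -3.08. In naive cells it had 27.5, 31.5 and 29.3 CPM in KO cells, against 49.5, 51.2 and 49.0 CPM in WT cells, again without overlap, and edgeR gave a log2 difference of -0.74 ± 0.08 (SE, adjusted p = 2.29e-05). Within Vps37b, an endosomal sorting gene, the site at chr5:124035803-124036203 averaged 0.734 ± 0.12 CPM in activated KO and 8.99 ± 3.43 CPM in activated WT cells. Its naive means were 22.0 ± 2.54 CPM in KO cells, against 39.2 ± 3.86 CPM in WT cells (adjusted p = 0.0867), so the site closed in both genotypes. In Lrrc8d, which encodes a volume-regulated anion channel subunit, a site at chr5:105718145-105718545 held 3.88 ± 0.318 CPM in activated KO and 28.1 ± 2.5 CPM in activated WT cells. In naive cells it held 22.0 ± 0.495 CPM in KO cells, against 28.2 ± 3.34 CPM in WT cells. In plain CPM only the WT mean was thus at a like level in both states. Its naive call (adjusted p = 0.0354) was lost without naive WT replicate 1 or 2 or any 1 naive KO library, with adjusted p up to 0.168. Within Ets2, a transcription factor gene, the site at chr16:95708125-95708525 had 0.782 ± 0.00801 CPM in activated KO and 7.71 ± 1.42 CPM in activated WT cells. In naive cells it was at 2.56 ± 1.03 CPM in KO cells, against 5.65 ± 1.06 CPM in WT cells, with a log2 difference of -1.11 ± 0.21 (adjusted p = 0.00612). Among the other sites with the largest loss, an intergenic one at chr19:32869196-32869596 had a log2 ratio of -2.70 and one in Slc23a2, a vitamin C transporter gene, had -2.69.

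The 6 highest sites in activated WT cells ranged from 52.5 to 77.6 CPM there. The highest, at chr11:6695277-6695677, had 36.1, 37.6 and 36.5 CPM in activated KO and 79.5, 76.5 and 76.8 CPM in activated WT libraries. It was also lower in naive cells, at 43.3 ± 3.27 CPM in KO cells, against 66.6 ± 5.18 CPM in WT cells (log2 -0.6 ± 0.07, adjusted p = 5.86e-05). A site in Thada (chr17:84419694-84420094) had 17.2 ± 2.19 CPM in activated KO and 54.3 ± 5.02 CPM in activated WT cells, and 17.3 ± 1.4 CPM in the naive KO cells, against 28.9 ± 1.86 CPM in the naive WT cells. In plain CPM the KO means of the 2 states lay within their SD, while the WT mean was higher after activation. A site in Ppp1r16b, which encodes a phosphatase regulatory subunit, differed in activated cells, at 23.6 ± 2.51 CPM in KO cells, against 60.4 ± 5.17 CPM in WT cells, but not past the test in naive cells (adjusted p = 0.246).

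The 5 sites with the smallest naive p lay in Pde3b, Tox, Pip4k2a and Tmem64 and at an intergenic position on chromosome 14. The Pde3b site (chr7:114494054-114494454) had 18, 19.6 and 17.2 CPM in the naive KO libraries, against 39.2, 38.5 and 39.4 CPM in the naive WT libraries. In activated cells it had fallen to 1.3 ± 0.233 CPM in KO, against 4.08 ± 0.369 CPM in WT. In Tox, a transcription factor gene of T cell development and exhaustion, the site at chr4:6975699-6976099 had 12.2, 11.3 and 12.3 CPM in the naive KO libraries, against 33.4, 29.6 and 25.1 CPM in the naive WT libraries (log2 -1.28 ± 0.1, adjusted p = 8.9e-08). In Pip4k2a, a phosphoinositide kinase gene, the site was at 17.4 ± 1.62 CPM in the naive KO cells, against 35.7 ± 2.8 CPM in the naive WT cells. The site of chromosome 14 (chr14:78384398-78384798) was among the largest losses too, at 3.93 ± 0.46 CPM in the naive KO cells, against 10.2 ± 0.273 CPM in the naive WT cells, and 1.7 ± 0.298 CPM in activated KO and 13.0 ± 0.498 CPM in activated WT cells. The single site called higher in naive KO cells, named after its values were seen, was at chr3:153258855-153259255 with 7.97 CPM in the naive KO cells, against 5.52 CPM in the naive WT cells (log2 0.54 ± 0.13, adjusted p = 0.0341). RLE scaling and DESeq2 gave it adjusted p of 0.0834 and 0.0798.

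By the start windows at hand, the non-induced lost sites were mostly distal. Their median distance to a RefSeq start was 25.3 kb, against 17.3 kb for all sites, and 3.70% lay within 1 kb of a start, against 12.4% of all sites. Overlap with a start window was 2.14%, against 9.47% of all sites. These values rest on 514 of the 527 sites and 107432 of all sites, since chromosome 18 had no start window. Starts of some other genes were lacking too: for the site inside Tmem64 the nearest start was that of Gm2560, at 982 kb. Some distances are thus too long and some overlaps missed, and how far this differs between groups of sites was not tested. The induced and lost sites were alike in this, with a median distance of 23.0 kb, 2.2% within 1 kb and 1.26% overlapping a window. Distance from starts was thus not particular to the non-induced lost sites. Within gene spans lay 359 of the non-induced lost sites (68.1%), against 65.0% of all sites. They were found on 20 chromosomes, and 144 had another such site within 50 kb. Tied to genes by a centre within the span of a gene or 10 kb beyond it, 391 sites reached 355 genes of the RNA table, and 136 reached none. There were 53 genes with 2 or more sites and 23 with 3 or more. Bach2, Pde3b, Satb1 and the gene models Gm17767, Gm19585 and Gm20098 held 4 each.

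RNA did not enter the selection, and 91 of 292 tested genes with a non-induced lost site (31.2%) were lower in activated KO cells. In the other direction, 11 (3.77%) were higher. Over all 11980 genes tested, 9.04% were lower and 5.89% higher (edgeR quasi-likelihood test, adjusted over all genes). The median log2 KO over WT was -0.124 over these genes and 0.0144 over all genes. The share that was lower stood at 27.0% of 244 genes with 1 site, 52.1% of 48 genes with 2 or more and 71.4% of 21 genes with 3 or more. Long genes can hold more sites by length alone, and gene length was not fitted. Many of these genes also hold an induced and lost site. Of the 142 genes with both kinds 57 (40.1%) were lower, of the 150 with non-induced lost sites alone 34 (22.7%), and of 1651 with induced and lost sites alone 348 (21.1%). Of the 91 lower genes, 48 had fallen and 31 had risen with activation in WT cells. Among all 292 tested genes with a non-induced lost site, 56.2% had fallen and 26.7% had risen, and among all genes 40.3% and 42.3%. Falling with activation was thus not particular to the lower genes.

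**Figure D3:**
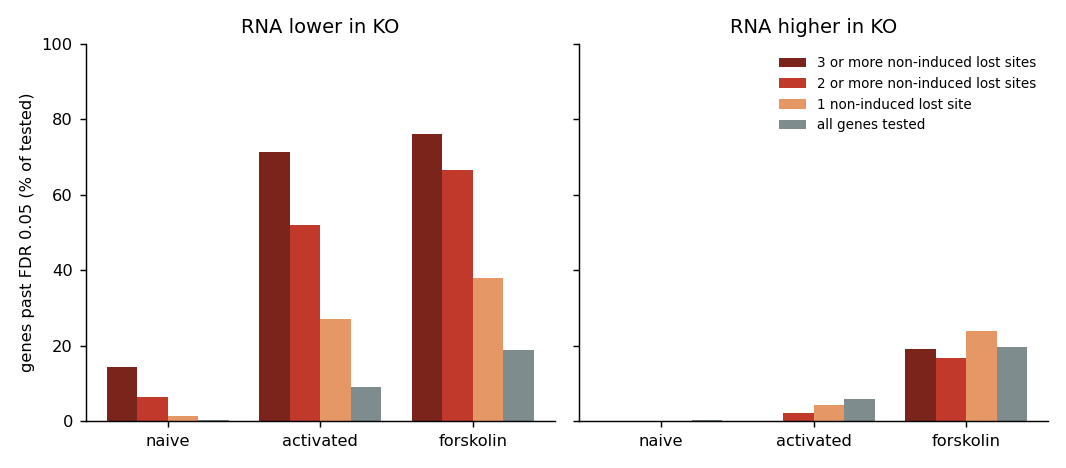
Bars give the percentage of tested genes whose RNA was lower (left) or higher (right) in KO than in WT at FDR 0.05, in naive, activated and forskolin-treated cells, for genes with 3 or more, 2 or more (the genes with 3 or more included) or 1 non-induced lost site and for all genes tested. In activated cells the lower share stands at 71.4%, 52.1%, 27.0% and 9.04%.

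Targets of cyclic AMP and CREB with a non-induced lost site were all lower. Of 30 measured genes on that list 8 held a non-induced lost site, namely Nr4a1, Nr4a3, Sik1, Pde3b, Pde4b, Pde4d, Dusp5 and Dusp10, and all 8 were lower in activated KO cells, with a median log2 of -1.45 (-3.42 to -0.54). Of the 22 without such a site 13 were lower and the rest were not called, with a median of -0.9. Pde3b encodes a phosphodiesterase that breaks down cyclic AMP. Its RNA was at 12, 12.7 and 13.9 CPM in activated KO against 95.0, 118 and 111 CPM in activated WT libraries (log2 -3.09 ± 0.14 SE, adjusted p = 1.32e-09). In naive cells it was at 67.6, 83.5 and 76.0 CPM in KO cells, against 196, 263 and 239 CPM in WT cells. The groups did not overlap in either state.

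All 4 sites at Pde3b lie inside the gene (chr7:114415222-114537938). The first, at chr7:114419373-114419773, was the one site called in naive cells in the authors' deposited table (FDR 0.0124), and had 0.514, 0.967 and 0.838 CPM in the naive KO libraries, against 2.84, 3.56 and 3.67 CPM in the naive WT libraries. In activated cells it had 0.421 ± 0.0866 CPM in KO cells, against 3.28 ± 0.796 CPM in WT cells. The third, at chr7:114479762-114480162, was the strongest, at 15.7 ± 1.36 CPM in activated KO and 33.8 ± 0.591 CPM in activated WT cells. In naive cells that site was at 67.0 ± 6.53 CPM in KO cells, against 73.9 ± 2.61 CPM in WT cells and did not pass the test (adjusted p = 0.579). Sites of 1 gene thus differed in how far the naive state already showed the loss.

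Pde4d and Pde4b encode phosphodiesterases specific for cyclic AMP. Pde4d RNA stood at 6.69, 5.99 and 6.81 CPM in activated KO against 66.5, 68.0 and 70.8 CPM in activated WT libraries (log2 -3.42 ± 0.17, adjusted p = 9.15e-09). Its 3 sites had log2 ratios of -1.68, -1.35 and -1.29 in activated cells, and none passed the test in naive cells. In naive cells Pde4d RNA was at 62.3 ± 3.98 CPM in KO cells, against 119 ± 29.1 CPM in WT cells (adjusted p = 0.00708). That call was lost without naive WT replicate 3 or any 1 naive KO library, with adjusted p up to 0.0880. Pde4b was at 17.0 ± 1 CPM in activated KO and 37.2 ± 2.8 CPM in activated WT cells (log2 -1.15 ± 0.09, adjusted p = 7.75e-08), with sites at -1.33 and -1.17. Nr4a3 encodes an orphan nuclear receptor induced by receptor signals. It was at 89.1, 93.6 and 88.1 CPM in activated KO and 274, 304 and 325 CPM in activated WT libraries (log2 -1.76 ± 0.08, adjusted p = 2.37e-11). Its sites inside the gene, 28.0 and 31.6 kb from its start, had log2 ratios of -1.1 and -1.01.

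Genes of naive and quiescent T cells held non-induced lost sites at 7 of 25 measured members, namely Ccr7, Lef1, Foxp1, Klf3, Satb1, Bach2 and Tgfbr2. Of these, 3 had less RNA and 1 had more RNA in activated KO cells, with a median log2 of -0.4. Of the 18 others 8 were lower and 2 higher, with a median of -0.19. Satb1, a chromatin organiser of T cells, was at 70.3, 54.6 and 61.2 CPM in activated KO against 318, 307 and 325 CPM in activated WT libraries (log2 -2.37 ± 0.09, adjusted p = 5.73e-12). In naive cells the groups overlapped, at 942, 789 and 884 CPM in KO cells, against 962, 1087 and 932 CPM in WT cells (adjusted p = 0.803). Satb1 RNA fell with activation in both genotypes, by 3.94 ± 0.1 on the log2 scale in KO and by 1.77 ± 0.09 in WT, and the difference passed the interaction test (adjusted p = 4.62e-09). Its site at chr17:51789127-51789527 was at 0.658 ± 0.291 CPM in activated KO and 2.09 ± 0.396 CPM in activated WT cells, against 16.4 ± 2.32 CPM in the naive KO cells, against 19.7 ± 0.589 CPM in the naive WT cells. Another, at chr17:51802939-51803339 and 8.91 kb from the start, kept its level in WT in plain CPM. It had 4.4 ± 0.283 CPM in activated KO, 13.3 ± 1.08 CPM in activated WT and 12.3 ± 0.873 CPM in naive WT cells.

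Ccr7, the receptor that leads T cells into lymph nodes, moved in opposite directions with activation in KO and WT cells. Its RNA was at 256, 239 and 244 CPM in activated KO against 1430, 1332 and 1436 CPM in activated WT libraries (log2 -2.53 ± 0.08, adjusted p = 2.77e-13). In naive cells it was at 690 ± 17.6 CPM in KO cells, against 687 ± 38.7 CPM in WT cells (adjusted p = 1). All 3 of its sites lie within 10 kb of the gene. The site at chr11:99143802-99144202 was at 12.1 ± 0.654 CPM in activated KO and 30.7 ± 1.44 CPM in activated WT cells, and at 25.1 ± 1.86 CPM in the naive KO cells, against 23.5 ± 1.34 CPM in the naive WT cells. The site at chr11:99145775-99146175 inside the gene was at 8.99 ± 0.887 CPM in activated KO and 25.8 ± 2.91 CPM in activated WT cells, with a naive log2 difference of -0.43 ± 0.11 (adjusted p = 0.0467). Leaving out naive WT replicate 1 or 2, naive KO replicate 1 or 3, or activated KO replicate 2 ended that naive call (adjusted p up to 0.318).

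**Figure D4:**
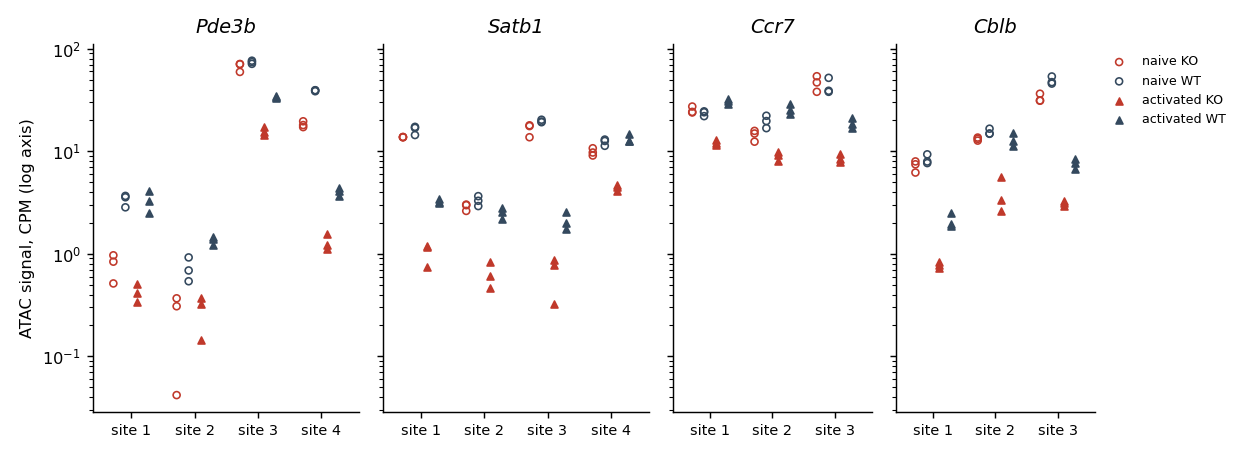
ATAC signal in CPM (log axis) at each non-induced lost site of Pde3b, Satb1, Ccr7 and Cblb, ordered by position, with 1 point per library, open circles for naive and filled triangles for activated cells, KO in red and WT in dark blue. In activated cells KO libraries lie below WT libraries at all 14 sites, whereas in naive cells 4 of them passed the edgeR test, with adjusted p of 7.77e-08 to 0.0467.

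Tgfbr2, a receptor chain for TGF-beta, was at 48.4 ± 3.6 CPM in activated KO and 70.6 ± 3.2 CPM in activated WT cells (log2 -0.57 ± 0.09, adjusted p = 0.000206). Its site closed in both genotypes, with 1.32 ± 0.193 CPM in activated KO and 3.51 ± 1.24 CPM in activated WT cells. Klf3, a transcription factor of the Kruppel-like family, was the 1 higher gene of the list, at 27.0 ± 0.837 CPM in activated KO and 17.9 ± 1.03 CPM in activated WT cells (log2 0.57 ± 0.09, adjusted p = 0.000178). Its site in the gene was lower, at 5.16 ± 0.547 CPM in activated KO and 13.2 ± 3.41 CPM in activated WT cells. Bach2, a repressor that restrains effector differentiation, held 4 sites, yet its RNA was at 114, 125 and 118 CPM in activated KO and 124, 169 and 171 CPM in activated WT libraries. The adjusted p was 0.0528, and RLE scaling, DESeq2 and leaving out naive KO replicate 1 or 2 or activated WT replicate 1 brought it under 0.05. The strongest Bach2 site, at chr4:32343752-32344152, had 15.3 ± 0.964 CPM in activated KO and 31.8 ± 4.65 CPM in activated WT cells.

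In T cell receptor signalling, 4 of 28 measured genes held a non-induced lost site, and 2 of them were lower in activated KO cells, with a median log2 of -0.62 over the 4 and -0.04 over the other 24, of which 5 were lower and 3 higher. Cblb encodes a ubiquitin ligase that restrains receptor signalling. Its RNA was at 60.2, 58.8 and 63.2 CPM in activated KO against 253, 218 and 239 CPM in activated WT libraries (log2 -1.99 ± 0.08, adjusted p = 1.44e-11), with no overlap. Of its 3 sites, all within the gene span, that at chr16:52143116-52143516 was lower in naive cells too, at 32.9 ± 3 CPM in KO cells, against 48.8 ± 4.19 CPM in WT cells (log2 -0.55 ± 0.08, adjusted p = 0.000637). That at chr16:52086718-52087118 had 3.84 ± 1.53 CPM in activated KO and 12.9 ± 1.95 CPM in activated WT cells. Ubash3b, a phosphatase that dampens receptor signals, was at 46.9 ± 1.42 CPM in activated KO and 91.1 ± 7.01 CPM in activated WT cells (log2 -0.98 ± 0.11, adjusted p = 7.13e-06). Fyn, a receptor-proximal kinase, held 3 sites with log2 ratios of -1.13, -1.17 and -1.5, and its RNA was at 335, 315 and 315 CPM in activated KO and 348, 348 and 343 CPM in activated WT libraries (log2 -0.13 ± 0.07, adjusted p = 0.251). Cbl, another ubiquitin ligase gene, had a log2 of -0.26 ± 0.1 (adjusted p = 0.0877).

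Stat4, which transmits the IL-12 signal, was the 1 of 23 measured Th1 and IL-12 genes with a non-induced lost site. Its RNA was at 51.2, 47.1 and 52.8 CPM in activated KO against 262, 245 and 281 CPM in activated WT libraries (log2 -2.41 ± 0.08, adjusted p = 1.2e-12). In naive cells it was at 106, 95.4 and 103 CPM in KO cells, against 111, 128 and 101 CPM in WT cells, where the groups overlapped (adjusted p = 0.95). Its site at chr1:52008397-52008797 lies inside the gene (chr1:51987106-52107189), 0.357 kb from the annotated start whose window is printed above. That start is itself inside the gene span and not at its edge. That site was lower in both states, at 10.1, 8.92 and 10.7 CPM in activated KO against 20.8, 23.2 and 22.2 CPM in activated WT libraries, and at 12.6, 12.9 and 13.7 CPM in the naive KO libraries, against 22.8, 23.6 and 23.8 CPM in the naive WT libraries. The naive difference was -0.82 ± 0.08 on the log2 scale (adjusted p = 5.29e-06). In plain CPM the level of the site hardly moved with activation in WT, with a log2 ratio of -0.08, which TMM scaling would lower. Stat4 RNA rose by 1.09 ± 0.08 in WT and fell by 1.14 ± 0.08 in KO cells.

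Of the other 22 measured Th1 and IL-12 genes 9 were lower and 4 higher. The remaining 4 lists had 1 tested gene with a site each. Cd28, the costimulatory receptor gene, was at 167 ± 12.8 CPM in activated KO and 235 ± 20.9 CPM in activated WT cells (log2 -0.52 ± 0.08, adjusted p = 0.000328), and its site at 2.03 ± 0.227 CPM in activated KO and 8.48 ± 1.01 CPM in activated WT cells. Ccr8, a chemokine receptor gene of skin-homing and regulatory T cells, was at 4.77, 6.95 and 4.18 CPM in activated KO and 16.8, 18.8 and 22.0 CPM in activated WT libraries (log2 -1.88 ± 0.22, adjusted p = 7.64e-06). Its site lies 9.22 kb from the start and was at 2.23 ± 0.572 CPM in activated KO and 9.24 ± 0.385 CPM in activated WT cells. Akap13, which encodes an anchoring protein of PKA, had a site and a log2 of -0.17 ± 0.1 in RNA (adjusted p = 0.279). For Il17ra, a chain of the IL-17 receptor, the RNA log2 was 0.02 ± 0.08 (adjusted p = 0.892). Among members of these lists without a site, 13 of 25 activation and costimulation genes were lower and 3 higher, 5 of 18 homing and chemokine receptor genes lower and 2 higher, 8 of 29 PKA and cyclic AMP signalling genes lower and 2 higher, and 6 of 21 cytokine receptor and STAT genes lower and 4 higher.

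**Figure D5:**
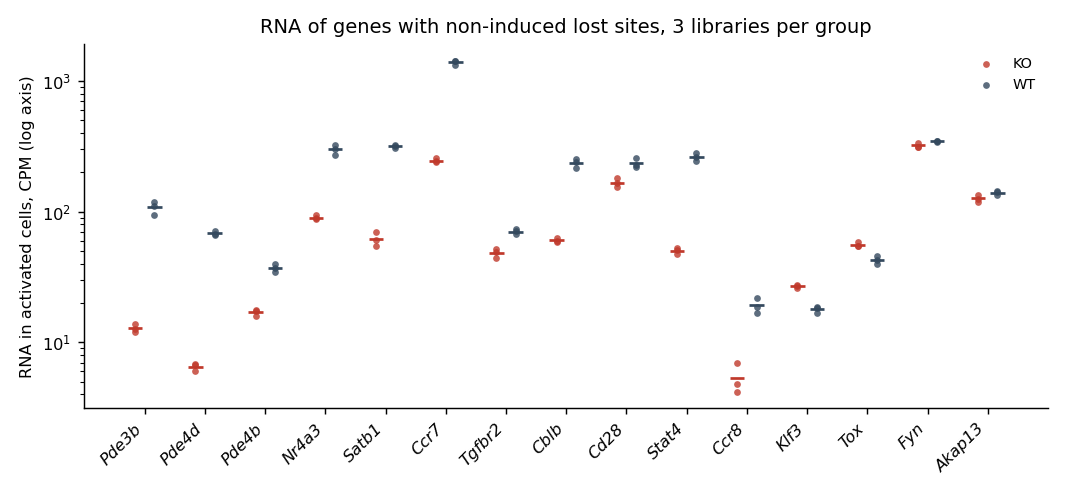
RNA in CPM (log axis) in activated cells of 15 named genes with non-induced lost sites, 3 KO libraries (red) left of 3 WT libraries (dark blue) for each gene, with lines at the means. Pde3b, Pde4d, Satb1, Ccr7, Cblb and Stat4 lie far apart, Fyn and Akap13 lie close together, and Klf3 and Tox are higher in KO.

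Among the other genes with most sites, Gpr146, a G protein-coupled receptor gene that overlaps 3110082I17Rik, held 3 sites that were lower in naive cells too. The strongest, at chr5:139384597-139384997, had 6.37, 6.16 and 5.26 CPM in activated KO against 34.6, 29.8 and 28.8 CPM in activated WT libraries, and 6.88, 8.01 and 6.37 CPM in the naive KO libraries, against 19.3, 19.1 and 13.3 CPM in the naive WT libraries (naive log2 -1.27 ± 0.13, adjusted p = 6.02e-06). The site over the printed Gpr146 start was at 3.95 ± 0.46 CPM in activated KO and 11.2 ± 2.13 CPM in activated WT cells. The naive calls of that site and of the third one were lost when some naive libraries were left out (adjusted p up to 0.188 and 0.0909). Gpr146 RNA was at 4.47 ± 0.53 CPM in activated KO and 15.5 ± 4.19 CPM in activated WT cells (log2 -1.82 ± 0.2, adjusted p = 1.95e-05), but at 76.8 ± 8.49 CPM in the naive KO cells, against 74.0 ± 11.9 CPM in the naive WT cells. Cytip, which encodes a partner of cytohesin in adhesion, was at 243 ± 12.7 CPM in activated KO and 445 ± 36.6 CPM in activated WT cells (log2 -0.9 ± 0.09, adjusted p = 2.73e-06).

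Ttc28 and the sphingomyelin synthase gene Sgms1 held 3 sites each without an RNA call, at adjusted p of 0.412 and 0.059. Ctif, a translation factor gene, had 3 sites and RNA at 1.92, 1.74 and 4.08 CPM in activated KO and 5.36, 4.94 and 5.3 CPM in activated WT libraries. Its call (adjusted p = 0.0208) was lost without activated WT replicate 3 or activated KO replicate 1 or 2, with adjusted p up to 0.112. Gpr171, a G protein-coupled receptor gene within Med12l, was at 13.8, 11.6 and 11.8 CPM in activated KO against 57.3, 61.7 and 59.1 CPM in activated WT libraries (log2 -2.28 ± 0.11, adjusted p = 1.16e-10), and its site at 4.71 ± 0.287 CPM in activated KO and 15.6 ± 1.57 CPM in activated WT cells. Tg, the thyroglobulin gene, was at 11.8 ± 0.382 CPM in activated KO and 81.9 ± 10 CPM in activated WT cells. Tg overlaps Sla, and the labelled library kit and counts give no strand, so reads of such overlapping genes cannot be told apart. The gene model Gm19585, named after its values were seen, held 4 sites and fell to 2.27 ± 0.515 CPM in activated KO, against 41.3 ± 6.39 CPM in activated WT cells (log2 -4.19 ± 0.25, adjusted p = 4.83e-08).

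Of the 11 genes with a site that were higher in activated KO cells, 8 are named by rule. Serpinc1, the antithrombin gene, showed the largest of these differences, at 34.6, 35.7 and 33.6 CPM in activated KO against 9.55, 11.4 and 17.7 CPM in activated WT libraries (log2 1.41 ± 0.2, adjusted p = 0.000198). Abcg1, a cholesterol exporter gene, was at 22.4 ± 2.59 CPM in activated KO and 13.4 ± 2.97 CPM in activated WT cells, and Tox at 56.0 ± 2.25 CPM in activated KO and 42.7 ± 3.13 CPM in activated WT cells. Mbnl2, Vav3, Camk2d and Ppp3ca, the last a catalytic subunit gene of calcineurin, had log2 values between 0.30 and 0.45. The calls of Vav3, Camk2d and Ppp3ca were each lost without at least 1 activated library (adjusted p up to 0.0581, 0.0668 and 0.0595). Their sites were lower in KO by selection, so RNA and site moved in opposite directions at these genes.

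For 12 named genes the start site with the highest signal in activated WT cells was looked up, among sites over a RefSeq start window. None of these 12 was a non-induced lost site, and their log2 KO over WT in activated cells had a median of -0.025 (-0.53 to 0.15). Other starts of named genes did hold one: the Gpr146 start printed above, at -1.39, which is not the strongest start site of that gene, and the Gm19585 start, at -1.11, which was not among the 12. A start site that was not induced and lower by 1 would itself have been selected, so this is a description. At Satb1 the start site was at 15.4 CPM in activated KO and 18.4 CPM in activated WT cells. At Cblb it was at 74.4 CPM in activated KO and 71.8 CPM in activated WT cells, and at Nr4a3 at 56.8 CPM in activated KO and 69.5 CPM in activated WT cells. Among the 12, genes with lower RNA had start site log2 ratios of -0.53 (Ccr8), -0.47 (Cytip), -0.45 (Gpr146) and -0.29 (Nr4a3). Satb1 had -0.25, Tgfbr2 -0.04 and Cblb 0.05. Genes without lower RNA, namely Ttc28, Klf3, Mbnl2, Fyn and Akap13, ran from -0.01 to 0.15. Pde3b, Pde4d, Ccr7 and Stat4 are not among the 12.

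In naive cells 6 of the 292 tested genes (2.05%) were lower in KO and none was higher, against 0.117% and 0.125% of all genes (edgeR). The 6 were Pde3b, Gpr171, Pde4d, Lmna, Tmem64 and Dusp10, of which the last 3 were named after their values were seen. DESeq2 called 8 lower and 0 higher, and at an unadjusted p under 0.05 edgeR had 33 lower and 1 higher. For these DESeq2 and unadjusted counts the shares over all genes were not computed, so they are description only. The edgeR count of lower genes was 10 without naive WT replicate 1, 3 without naive WT replicate 2, 3 without naive KO replicate 2 and 2 without naive KO replicate 3. Shares over all genes were not computed for these either. Gpr171 RNA was at 21.2, 24.8 and 24.5 CPM in the naive KO libraries, against 37.9, 38.2 and 43.5 CPM in the naive WT libraries (log2 -0.78 ± 0.1, adjusted p = 0.00178). Its site was lower in naive cells as well, at 13.1 ± 0.665 CPM in KO cells, against 20.2 ± 0.372 CPM in WT cells (adjusted p = 0.00073). The share called lower in naive cells was 2.05% of genes and 18.6% of sites, over different features and depths.

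With forskolin 121 of 283 tested genes (42.8%) were lower in KO and 64 (22.6%) higher, against 18.8% and 19.7% of all genes. Chromatin was not measured in that condition. Pde3b was at 156 ± 9.32 CPM in forskolin KO and 839 ± 37.4 CPM in forskolin WT cells, Pde4d at 103 ± 2.71 CPM in forskolin KO and 629 ± 15.7 CPM in forskolin WT cells, and Cblb at 117 ± 6.21 CPM in forskolin KO and 487 ± 11.1 CPM in forskolin WT cells. Nr4a3 was at 1.27, 1.28 and 0.725 CPM in forskolin KO and 16.3, 20.9 and 15.2 CPM in forskolin WT libraries (log2 -4.01 ± 0.21, adjusted p = 1.96e-15). Bach2, which missed the threshold in activated cells, was at 185 ± 3.29 CPM in forskolin KO and 314 ± 3.46 CPM in forskolin WT cells (log2 -0.79 ± 0.03, adjusted p = 3.43e-18). Stat4 was at 36.8 ± 2.41 CPM in forskolin KO and 132 ± 2.16 CPM in forskolin WT cells.

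Activation itself lowered many of these genes in WT cells. There, 164 of the 292 (56.2%) were lower in activated than in naive cells and 78 (26.7%) higher, against 40.3% and 42.3% of all genes. The genotype difference changed with activation, by the interaction test, in 43 genes with a more negative and 3 with a more positive difference in activated cells (14.7% and 1.03%), against 2.52% and 1.18% of all genes. The more positive ones were Klf3, Prkcb and Inpp4b, of which the last 2 were named after their values were seen.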

How the data were processed

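Per the labels, RNA libraries were made with the NEBNext Ultra II RNA kit and ATAC libraries with the Active Motif kit. The authors deposited raw counts per site and per gene, and for sites log2 concentrations and folds with a p-value and an FDR (q-value). The build was mm10, per the submitters' processing notes. The aligner, counter, peak caller and test behind the deposited values are not given in the sources used here. CPM were computed from the counts and their column sum. RNA table entries with no symbol (1314, holding 0.128 to 0.159% of counts) were left out.

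Counts were tested with edgeR 4.0.16 (TMM scaling, filterByExpr, robust quasi-likelihood fit, Benjamini-Hochberg FDR of 0.05) in R 4.3.3, with 1 fit over the 12 naive and activated libraries of each assay and 1 over the 6 forskolin libraries. The ± beside a log2 difference is its SE, and beside a CPM mean the SD over 3 libraries. Alternatives were RLE scaling, no filter, DESeq2 1.42.0, the replicate number as a block, each library left out, other thresholds and other windows from site to gene. Sites were tied to RefSeq GRCm38.p6 genes by their centre, within 10 kb of the gene span. On simulated counts edgeR recovered 98% of changes of 1 on the log2 scale in activated RNA over 11710 genes. It recovered 98% in forskolin RNA over 11559 genes, and 90% in naive ATAC over 110700 sites. Each share is out of 100 changed features, and the share recovered in the counts of the real libraries was not tested.

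The members and lists were chosen with earlier results of these data known. Sites named are the 8 with the largest loss and at least 2 CPM in activated WT, the 6 highest in activated WT and the 5 with the smallest naive p. One of these sites is not reported here. Genes named are the 10 with most sites (Gm and Rik models left out), the 8 with the smallest activated RNA p in each direction with at least 5 CPM, and up to 4 per list. Same-numbered KO and WT libraries deviated together in each pair, with correlations of 0.372, 0.114 and 0.171 in activated ATAC, 0.278, 0.233 and 0.12 in naive ATAC, 0.669, 0.374 and 0.323 in activated RNA, and 0.307, 0.22 and 0.474 in forskolin RNA, but not in each pair of naive RNA, with 0.544, -0.02 and 0.079. Replicate 2 of activated ATAC and of activated RNA, and replicates 2 and 3 of naive RNA, did not correlate best with their own number. The numbers come from the sample titles. No libraries of a group agreed within sampling noise (lowest chi-square per degree of freedom 1.15).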

Additional observations from a re-analysis of the deposited data

Results flagged for a closer look

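The genotype difference in RNA changed between naive and activated cells at 17 named genes with a non-induced lost site, Gm19585 among them, by the interaction test of edgeR at an FDR of 0.05. It was more negative in activated cells by -3.64 on the log2 scale for Gm19585, -2.51 for Ccr7, -2.46 for Pde4d, -2.23 for Stat4, -2.16 for Satb1 and -2.05 for Ccr8. Gpr146 and Cblb each had -1.85, Gpr171 had -1.5, Pde3b -1.45, Nr4a3 -1.21, Pde4b -1.2 and Ubash3b -1.1. Cytip had -0.9, Tgfbr2 -0.55 and Cd28 -0.54. Klf3 had a more positive difference, at 0.54, as did Prkcb at 0.37 and Inpp4b at 0.34, which are not counted in the 17. The calls of Tgfbr2, Cd28 and Ccr8 were each lost in at least 1 alternative.

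At 7 of 32 named genes, Prkaca counted among the 32, the KO and WT libraries stood apart in opposite directions with forskolin and in activated cells. The share over all genes was not computed, so this count is description only. That difference was not tested, and the conditions come from separate count tables. With forskolin, KO over WT was -0.43 on the log2 scale for Klf3, -0.21 for Abcg1, -0.44 for Tox and -0.28 for Camk2d, all higher in activated KO cells. It was 0.91 for Ubash3b, 0.27 for Fyn and 0.03 for Cbl, whose activated KO libraries all lay below the WT ones. For Fyn and Cbl the activated difference did not pass the test, nor did the forskolin difference of Cbl (adjusted p = 0.521).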

How the results depend on the processing

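The number of non-induced lost sites was 877 with a pseudocount of 0.1 CPM and 93 with a log2 of at most -1.5, and 435 to 625 with 1 library left out. Scaling CPM by TMM gave 617 sites, of which 494 were shared. The authors' deposited FDR left 1 site lower in naive cells, and leaving out 1 library gave 74 to 145. Leaving out genes that also hold an induced and lost site, an alternative chosen after seeing the data, left 34 genes lower in activated KO, 1 in naive KO, 62 lower and 33 higher with forskolin, 87 lower and 37 higher on WT activation, and 14 in the interaction. Tying sites to genes within 50 kb gave 195 lower and 123 higher with forskolin, and 283 lower and 181 higher on WT activation. An FDR of 0.01 left 27 interaction calls. With 1 library left out, genes lower numbered 73 to 95 in activated KO, 2 to 10 in naive KO and 110 to 119 with forskolin, where 55 to 62 were higher. WT activation had 160 to 165 lower and 77 to 80 higher, and the interaction 30 to 49. For the 50 kb window, the FDR of 0.01 and the left-out libraries, shares over all sites or genes were not computed. The 50 kb window also ties more genes to sites. These counts are thus description only. The sign turned for Il17ra in activated RNA (-0.01 to 0.07 with 1 library left out), for Serpinc1 with forskolin (-0.46 to 0.20) and for Akap13 with forskolin (-0.04 to 0.01, and 0.00 with no filter). None of these was called, and the cause was not tested.

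With the replicate number as a block, pairing same-numbered libraries, 134 sites were lower in naive KO, and genes lower numbered 96 in activated KO, 7 in naive KO, 125 with forskolin (66 higher) and 53 in the interaction, with 165 lower and 79 higher on WT activation. The block moved no count by over 1.5 times. Shares over all sites or genes were not computed with the block, so these counts are description only. Of 27 named genes called in activated RNA, 23 were called in every alternative at an FDR of 0.05. Sites under about 1 CPM rest on few counts.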
